A study of Mus musculus with 8 samples.

Results

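The 10 genes described here, Marcks, Marcksl1, Gap43, Basp1, Atf3, Jun, Sox11, Sprr1a, Gadd45a and Ecel1, are genes of axon injury and axon growth, taken by symbol from a table of 24421 mouse genes counted in the dorsal root ganglion (DRG) before and after an inflammation of the hind paw. All 10 were among the 17328 genes that were abundant enough to be tested. The list was chosen by earlier results of the same libraries as well as by what these genes are known for. The choice of Marcks is taken to rest on its difference from the naive ganglion at 1 and 3 days, although the values that chose it are not stated, so its values against the naive libraries are a description without a test. Carrageenan, a seaweed polysaccharide that inflames the tissue it is injected into, was given as 20 µl of a 1% solution into the left hind paw. The mice were wild-type C57BL/6J, aged 8 weeks in the sample annotation, the lower end of the range in the paper's methods. Ganglia L3 to L5 of the left side were taken 1, 3 or 30 days post injection (PI), called 1d, 3d and 30d. The 0d mice were naive and received no injection, so the needle, the vehicle and carrageenan cannot be told apart. No uninjected group was taken at a later time, so time and age cannot be told apart from the injection either. Mice were perfused with RNA Later before dissection. Each time point had 2 libraries, each from the pooled ganglia of 2 to 3 mice, and p-values measure the spread between such pools.

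When a peripheral axon is cut, the sensory neuron switches on a set of transcription factors, among them Atf3, Jun and Sox11, and with them genes of axon outgrowth such as Gap43 and Sprr1a. Damage signals reach the nucleus through the kinase DLK and the JNK cascade. Growth-associated proteins of the growth cone, including those of Marcks, Gap43 and Basp1, lie under the cell membrane, where they bind membrane lipids and influence the actin skeleton. This set is best known from nerve transection, whereas carrageenan inflames the skin in which the sensory endings lie.

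Although the labels give DRG neurons as the cell type, whole ganglia were dissected, and markers of other cells were abundant. The summed level of 5 neuron markers was 6713 to 7138 CPM (counts scaled to a common library total, with TMM factors), and that of 4 myelinating Schwann cell markers 5351 to 10668 CPM. In bulk tissue, fewer cells of a type and less RNA per cell cannot be told apart. Totals were 44123208 to 73580338 counts per library. Library 0d replicate 1 had the highest sums of myelinating Schwann cell markers (10668 CPM against 7795 in 0d replicate 2), of fibroblast markers (997 against 718) and of skeletal muscle markers (109 against 57.2). It also had the highest sums of neuron markers (7138 CPM against 6902), macrophage markers (56.8 against 48.6) and endothelium markers (52.5 against 46.9). Of the 4 repair Schwann cell markers, Olig1 was too low to be tested, with 0 to 11 counts per library. Of the markers of other cells, the macrophage gene Cx3cr1 was lower at 3d than at 0d and 1d, and the muscle gene Myh1 was lower at 1d and 3d than at 0d and higher at 30d than at 3d (edgeR adjusted p under 0.05), and their part in the results was not tested.

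Per length, Basp1 and Gap43 were the most abundant of the set at 0d. In RPKM, which divides CPM by the exon length in kilobases, Basp1 was at 142 to 162 and Gap43 at 137 to 147, and these ranges overlapped. Jun followed with 37.9 to 38.3 RPKM and Marcks with 34.1 to 37.0 RPKM, without overlap. Gadd45a was at 16.9 to 19.6 RPKM and Marcksl1 at 11.01 to 12.2 RPKM. The lowest in the naive ganglion were Atf3 with 2.99 to 4.96 RPKM, Sprr1a with 0.813 to 4.68 RPKM, Sox11 with 1.34 to 1.48 RPKM and Ecel1 with 0.329 to 0.803 RPKM. The wide range of Sprr1a spanned that of Sox11 and reached into that of Atf3.

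Marcks encodes a major substrate of protein kinase C, which anchors to the membrane and binds actin and calmodulin, and Marcksl1 encodes its smaller relative. The gene lies on chromosome 10 of mm10 (37133243 to 37138926, minus strand, 2 exons) and Marcksl1 on chromosome 4 (129513581 to 129515981, plus strand, 2 exons). Both proteins carry a basic stretch that binds membrane lipids and is the site of phosphorylation, and the coding sequences of that stretch are shown because they are what the pair has in common. The windows are the 25 codons with the most lysine and arginine codons in each gene, read from GENCODE transcripts, 5′ to 3′, with those codons in capitals. They lie at chr10:37136531-37136605 on the minus strand (codons 145 to 169 of 309, in exon 2) and at chr4:129514885-129514959 on the plus strand (codons 86 to 110 of 200, in exon 2).
Marcks: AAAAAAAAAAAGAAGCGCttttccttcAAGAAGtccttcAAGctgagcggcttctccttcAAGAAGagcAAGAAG
Marcksl1: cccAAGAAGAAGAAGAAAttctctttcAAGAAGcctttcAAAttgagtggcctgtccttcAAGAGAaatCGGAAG
The Marcks window held 13 lysine or arginine codons and that of Marcksl1 12. They were identical at 52 of 75 bases (69.3%), and 11 codons were the same. Over their whole transcripts both genes shared no 50-base word, so reads of one were not expected to be counted for the other. Words found in other genes made up 0.075% of Marcks and 1.61% of Marcksl1, the latter including a pseudogene, and none in the other 8 genes.

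Marcks was highest in both naive pools. Its level was 155 and 143 CPM in the 0d libraries, 124 and 124 CPM at 1d, 124 and 123 CPM at 3d, and 120.3 and 129 CPM at 30d. All 6 later libraries lay below both 0d libraries, and the later groups overlapped one another. Against 0d the log2 fold change was -0.26 at 1d, -0.27 at 3d and -0.26 at 30d, with a standard error of 0.05 at each, and these 3 values share the 0d libraries. Without 0d replicate 1, the library with the highest Schwann cell sum and the highest Marcks level, they were -0.20, -0.21 and -0.20, and the part of those other cells in the difference was not tested. After the injection no further step was seen, with log2 fold changes of -0.01 from 1d to 3d (standard error 0.05, edgeR adjusted p = 1.00) and 0.02 from 3d to 30d (standard error 0.05, edgeR adjusted p = 0.930). From 1d to 30d it was 0.01, with an interval of 2 standard errors from -0.09 to 0.11.

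Marcksl1 was at 17.6 and 19.6 CPM at 0d, 16.5 and 21.5 CPM at 1d, 18.7 and 20.1 CPM at 3d, and 14.7 and 16.9 CPM at 30d. The 0d, 1d and 3d libraries overlapped, and both 30d libraries lay below those of 0d and 3d. The log2 fold change against 0d was 0.03 at 1d (interval of 2 standard errors from -0.22 to 0.28), 0.06 at 3d (-0.19 to 0.30) and -0.24 at 30d (-0.49 to 0.01), with edgeR adjusted p-values of 1.00, 0.999 and 0.457. Leaving out 1 library moved the value at 30d between -0.35 (without 30d replicate 2) and -0.14 (without 30d replicate 1).

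**Figure D1:**
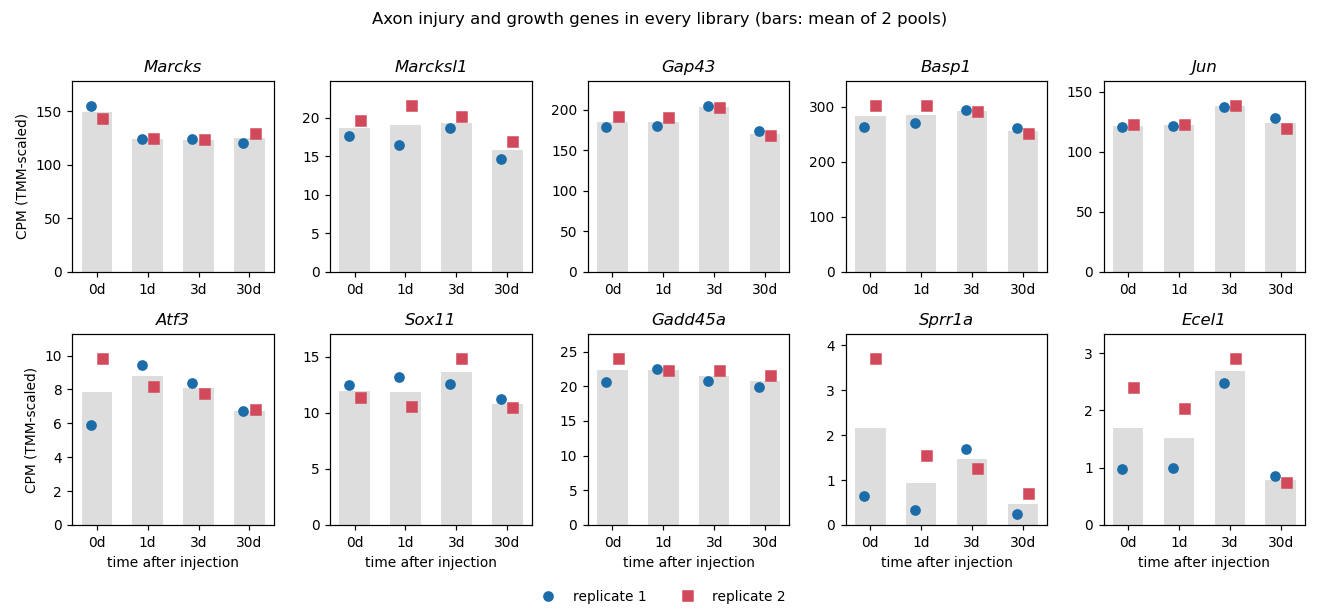
Levels of the 10 genes in CPM (vertical axes, each from 0) by time after the injection, with one point per library and bars at the mean of the 2 pools. Marcks was higher in both 0d libraries than in any later one, Gap43 and Jun were highest at 3d, and the pools of 0d and those of 1d lay far apart for Sprr1a and Ecel1.

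Gap43 encodes a growth cone protein that is phosphorylated by protein kinase C and binds calmodulin. The gene is on chromosome 16 (42248561 to 42340651, minus strand, 3 exons). Its level was 178 and 191 CPM at 0d, 179 and 190.05 CPM at 1d, 205 and 202 CPM at 3d, and 174 and 167 CPM at 30d. Both 3d libraries were above, and both 30d libraries below, all libraries of 0d and 1d. Gap43 fell between 3d and 30d, and the log2 fold change was -0.26 with a standard error of 0.05 and an edgeR adjusted p of 0.0213. The higher level at 3d did not pass the test, at 0.14 on the log2 scale both against 0d (standard error 0.05, edgeR adjusted p = 0.513) and against 1d (edgeR adjusted p = 0.689). At 30d it was -0.12 against 0d (edgeR adjusted p = 0.346), and -0.16 and -0.07 without 0d replicate 1 and 0d replicate 2. The fall from 3d to 30d lost the call when 3d replicate 1 (edgeR adjusted p = 0.354), 3d replicate 2 (0.245) or 30d replicate 2 (0.0830) was left out, with log2 fold changes of -0.25, -0.27 and -0.23. The summed neuron markers overlapped between these times, at 6889 to 7028 CPM at 3d and 6713 to 6994 CPM at 30d. Within that sum Prph was lower at 30d (1771 and 1747 CPM against 1874 and 1839). Snap25 (1381 and 1478 CPM against 1293 and 1301) and Rbfox3 were higher at 30d, and Nefh and Isl1 overlapped. Sums of 6 other cell types lay apart, and those of endothelium, skeletal muscle, repair Schwann cells and cycling cells overlapped. Myelinating Schwann cell markers were at 8838 to 8903 CPM at 3d and 5351 to 7580 CPM at 30d, and satellite glia markers at 734 to 737 and 663 to 683 CPM. Macrophage markers were higher at 30d (51.4 to 51.7 CPM against 45.6 to 45.9), as were red blood cell markers (276 to 515 CPM against 181 to 189), of which 30d replicate 1 held the most. The fibroblast sum was higher too (772 to 843 CPM against 740 to 746). Of its markers Dcn (523 and 596 CPM against 440 and 438) and Pdgfra were higher, but Col1a1 was lower (220 and 222 against 282 and 277). Keratinocyte markers were lower at 30d (2.74 to 3.00 CPM against 4.21 to 4.28). The part of these cells in the result was not tested.

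Basp1 encodes a myristoylated growth cone protein of the same functional class and is on chromosome 15 (25363277 to 25413764, minus strand, 2 exons). It had 263 and 301 CPM at 0d, 269 and 300.4 CPM at 1d, 293 and 289 CPM at 3d, and 261 and 250.2 CPM at 30d. Both 30d libraries were below those of every other time point, but by little beside the gap between the 0d pools. The log2 fold change from 3d to 30d was -0.19 (standard error 0.06, edgeR adjusted p = 0.247), and at 3d against 0d it was 0.04 (interval of 2 standard errors from -0.08 to 0.17).

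Among the transcription factors, Jun had the highest level per length. It encodes the AP-1 subunit that JNK phosphorylates and lies on chromosome 4 (95049036 to 95052222, minus strand, 1 exon). Jun was at 121 and 122 CPM at 0d, 122 and 123 CPM at 1d, 137 and 138 CPM at 3d, and 128 and 119 CPM at 30d. Both 3d libraries exceeded all 6 others, and the remaining groups overlapped. The log2 fold change at 3d was 0.18 against 0d (standard error 0.05, edgeR adjusted p = 0.236) and 0.17 against 1d (standard error 0.05, edgeR adjusted p = 0.306), neither past the threshold of 0.05. In a fit of the 1d and 3d libraries alone the latter passed, with 0.17 and an edgeR adjusted p of 0.0402. At 30d Jun was at 0.03 against 0d and -0.15 against 3d (edgeR adjusted p = 0.160), and the latter was -0.21 and passed without 30d replicate 1 (edgeR adjusted p = 0.0454) and was -0.10 without 30d replicate 2. An antisense gene, Junos, overlaps 232 of its exon bases (7.28%), and since strand was not counted, reads of the pair cannot be told apart there.

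Atf3 encodes a stress-induced ATF family factor that is a standard marker of axotomised sensory neurons, and its gene is on chromosome 1 (191170297 to 191183333, minus strand, 4 exons). Its level was 5.92 and 9.80 CPM at 0d, 9.43 and 8.14 CPM at 1d, 8.39 and 7.73 CPM at 3d, and 6.72 and 6.77 CPM at 30d. The 0d pools, which differed by 1.66 times, enclosed all later libraries. The log2 fold change against 0d was 0.16 at 1d (interval of 2 standard errors from -0.23 to 0.55), 0.03 at 3d (-0.36 to 0.42) and -0.22 at 30d (-0.61 to 0.17), with edgeR adjusted p-values of 1.00, 0.999 and 0.677.

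Sox11, a SoxC factor that promotes axon growth, lies on chromosome 12 (27334268 to 27342718, minus strand, 1 exon). It was at 12.5 and 11.3 CPM at 0d, 13.2 and 10.5 CPM at 1d, 12.6 and 14.8 CPM at 3d, and 11.3 and 10.4 CPM at 30d. The 3d libraries lay above both 0d and both 30d libraries, and overlapped those of 1d. The log2 fold change was 0.20 at 3d against 0d (standard error 0.13, edgeR adjusted p = 0.960) and -0.34 from 3d to 30d (standard error 0.13, edgeR adjusted p = 0.296). Without 3d replicate 2 they were 0.08 and -0.22, and without 3d replicate 1 0.32 and -0.45.

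Gadd45a encodes a growth arrest and DNA damage response protein that is also induced by nerve injury, and is on chromosome 6 (67035096 to 67037407, minus strand, 4 exons). It had 20.7 and 23.9 CPM at 0d, 22.4 and 22.2 CPM at 1d, 20.7 and 22.1 CPM at 3d, and 19.9 and 21.5 CPM at 30d. The 0d libraries enclosed those of 1d and overlapped the 3d and 30d libraries. Against 0d the log2 fold change was -0.00 at 1d, -0.06 at 3d and -0.11 at 30d, with a standard error of 0.09 at each and edgeR adjusted p-values of 1.00, 0.999 and 0.672. E230016M11Rik, on the opposite strand, shares 238 of its exon bases (19.4%), and read pairs there were counted for both.

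Sprr1a, a cornified envelope gene of the skin that axotomised sensory neurons also express, differed more between its 0d pools than between the means of any time points. The gene is on chromosome 3 (92483954 to 92485881, minus strand, 2 exons). Its level was 0.643 and 3.70 CPM at 0d (34 and 227 counts), 0.324 and 1.53 CPM at 1d, 1.69 and 1.24 CPM at 3d, and 0.253 and 0.700 CPM at 30d (15 and 49 counts). The highest library of all was naive, and the 0d range covered all later libraries except 1d replicate 1 and 30d replicate 1. The second 0d pool exceeded the first 5.76 times, a gap as large as in 0.306% of all tested genes, and at 1d the second exceeded the first 4.72 times (0.693% of genes). Against 0d the log2 fold change was -1.24 at 1d, -0.58 at 3d and -2.17 at 30d, with standard errors of 1.07, 1.01 and 1.10 and edgeR adjusted p-values of 1.00, 0.999 and 0.502. Without 0d replicate 2 these became 0.52, 1.19 and -0.42, so that at 1d and 3d the direction rested on that library. The 4 keratinocyte markers, Krt1, Krt10, Krt5 and Krt14, summed to 3.57 and 4.91 CPM in the 0d libraries and 2.74 to 4.28 CPM later, Krt5 was at 0 to 6 counts and Krt14 at 2 to 13 counts in every library, and their part in the spread of Sprr1a was not tested.

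Ecel1, which encodes a membrane metallopeptidase that is strongly induced in injured neurons, lies on chromosome 1 (87147655 to 87156356, minus strand, 19 exons). It was at 0.983 and 2.40 CPM at 0d, 0.992 and 2.03 CPM at 1d, 2.48 and 2.90 CPM at 3d, and 0.859 and 0.728 CPM at 30d. Both 3d libraries were above all others and both 30d libraries below all others, although the 0d pools differed 2.44 times and the 1d pools 2.04 times. The log2 fold change was 0.66 at 3d against 0d (standard error 0.41, edgeR adjusted p = 0.950) and -1.76 from 3d to 30d (standard error 0.43, edgeR adjusted p = 0.0844). Without 0d replicate 1 the value at 3d against 0d was 0.17, and without 0d replicate 2 it was 1.45. The step from 3d to 30d passed the threshold in 3 of 7 other settings (DESeq2 gave no adjusted p), among them a fit of those libraries alone (-1.76, edgeR adjusted p = 0.0247). At 30d against 0d it was -1.10 (standard error 0.43, edgeR adjusted p = 0.336), and without 0d replicate 2 it was -0.31.

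**Figure D2:**
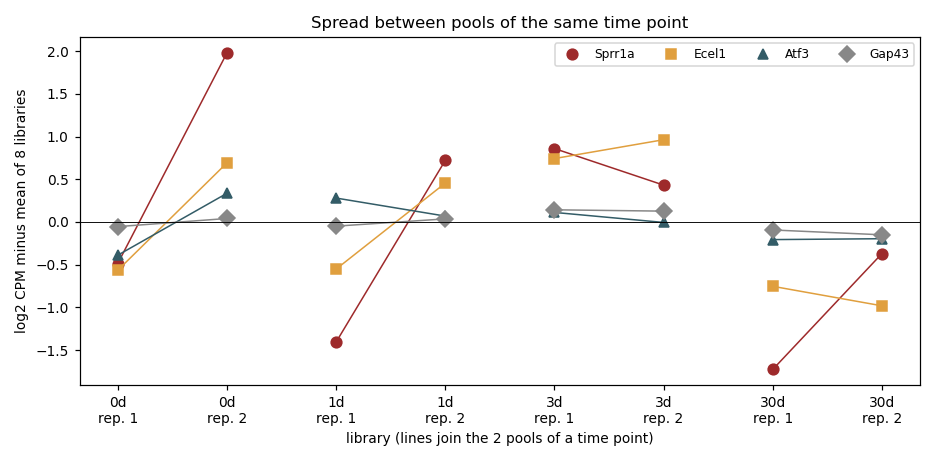
Log2 CPM minus the mean of the 8 libraries for Sprr1a, Ecel1, Atf3 and Gap43 (vertical axis) in each library (horizontal axis), with lines joining the pools of a time point. The 0d pools were 5.76 times apart for Sprr1a, 2.44 times for Ecel1 and 1.66 times for Atf3, whereas the pools of Gap43 differed little.

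The pools of the naive group differed in 1 direction for most of the set. In 0d replicate 2, 8 of 10 genes were higher than in 0d replicate 1, the exceptions being Marcks and Sox11, against 50.3% of all tested genes. Of 29 other genes of injury and regeneration, 21 were also higher in that library. At 1d, 6 of 10 genes and again 21 of the 29 were higher in replicate 2 (50.2% of all genes). At 3d these were 5 of 10 and 7 of 29 (48.9%), and at 30d 5 of 10 and 12 of 29 (49.5%).

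Counted over the set, few genes passed the test in any comparison. At 1d against 0d, 1 of 10 genes was lower at an adjusted p under 0.05 and 0 were higher, where 0.346% of all tested genes were called. At 3d it was again 1 lower and 0 higher, with 0.219% of all genes called. In both the gene was Marcks, which had been picked for these contrasts, so nothing is read from its count. At an unadjusted p under 0.05 there were, besides Marcks, 0 genes at 1d (4.47% of all genes) and 2 higher at 3d, Gap43 and Jun (5.94%). At 30d against 0d edgeR called 0 of 10 (0.0231% of all genes) and DESeq2 called Marcks alone (1.24%), from which nothing is read, since the 0d libraries for which it was picked are the same. With an unadjusted p under 0.05, 3 genes besides Marcks were lower at 30d, namely Gap43, Basp1 and Ecel1, where 12.3% of all genes passed. All 3 comparisons share the 0d libraries.

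Between the later times, edgeR and DESeq2 each called 0 of 10 genes from 1d to 3d (0.289% and 0.623% of all genes), while Gap43 and Jun were higher at an unadjusted p under 0.05 (4.24% of all genes). From 3d to 30d, 1 of 10 was called lower by edgeR, Gap43, beside 0.935% of all genes. At an unadjusted p under 0.05, 6 of 10 were lower and 0 higher, namely Marcksl1, Gap43, Basp1, Jun, Sox11 and Ecel1, beside 13% of all genes in either direction. Of these, only Gap43 passed the adjustment over all genes. The 10 genes were chosen with earlier results of these libraries known. Neither this call nor the count of 6 is therefore independent evidence. From 1d to 30d edgeR and DESeq2 each called 0 of 10 (0.571% and 1.52% of all genes), and Gap43 and Basp1 were lower at an unadjusted p under 0.05 (11.7%).

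Against 0d, the median log2 fold change of the set was -0.00 (1d), 0.05 (3d) and -0.18 (30d), and it was -0.26 from 3d to 30d, while the median of all tested genes was within 0.00320 of 0 in every comparison. Of the 10 genes, 7 were above 0 at 3d against 0d, and 9 were below 0 both at 30d against 0d and from 3d to 30d. Jun was the exception in the former and Marcks in the latter. As the genes were chosen with earlier results known, these medians and counts are no independent evidence either. Both 30d libraries lay below both 0d libraries in the sums of satellite glia (663 to 683 CPM against 720 to 724) and myelinating Schwann cell markers (5351 to 7580 against 7795 to 10668). Repair Schwann cell and keratinocyte sums were lower too, and the other sums overlapped. The part of these cells was not tested.

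**Figure D3:**
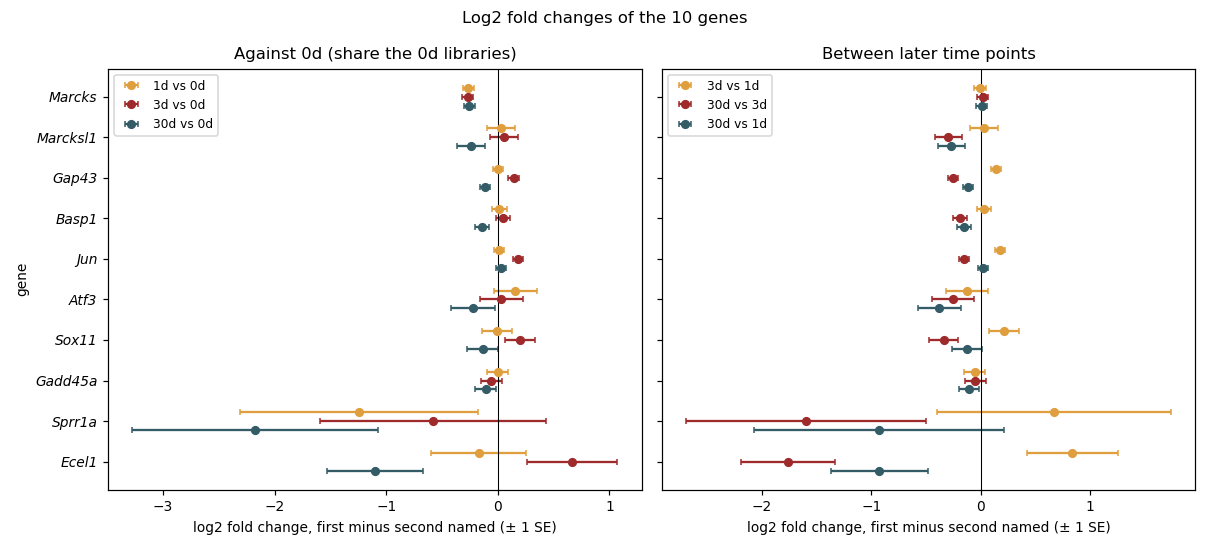
Log2 fold changes of the 10 genes (horizontal axis, bars of 1 standard error) against 0d in the left panel and between later time points in the right panel. The 3 values of Marcks against 0d lie near -0.26, most values from 3d to 30d lie below 0, and the bars of Sprr1a exceed 1 on the log2 scale.

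Jun and the ATF proteins bind AP-1 and related sites, and promoters of 8 of the 10 genes were in the RefSeq promoter table used here (GRCm38.p6), those other than Marcks and Gap43. The 250 bases before each start were searched on both strands for TGAGTCA (the AP-1 site), TGACGTCA (the cyclic AMP response element) and TGACATCA (the variant in the Jun promoter). The last was taken from Jun, so its match there was fixed by the choice of letters. Of the 7 other promoters, 2 held a match, those of Sox11 and Sprr1a. These and the Jun window are shown because they hold the letters searched for. They are written 5′ to 3′ along the minus strand, with the matches in capitals, for Jun chr4:95052223-95052472, for Sox11 chr12:27342719-27342968 and for Sprr1a chr3:92485882-92486131.
Jun: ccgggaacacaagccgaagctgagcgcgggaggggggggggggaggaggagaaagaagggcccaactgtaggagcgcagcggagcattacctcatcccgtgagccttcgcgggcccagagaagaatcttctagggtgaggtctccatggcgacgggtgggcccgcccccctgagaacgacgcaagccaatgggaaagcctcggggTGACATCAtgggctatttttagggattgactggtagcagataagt
Sox11: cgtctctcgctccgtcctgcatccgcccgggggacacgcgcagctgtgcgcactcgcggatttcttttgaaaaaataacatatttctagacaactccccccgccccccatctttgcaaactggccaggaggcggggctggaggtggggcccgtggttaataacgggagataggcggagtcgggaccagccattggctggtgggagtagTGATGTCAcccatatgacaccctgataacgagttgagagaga
Sprr1a: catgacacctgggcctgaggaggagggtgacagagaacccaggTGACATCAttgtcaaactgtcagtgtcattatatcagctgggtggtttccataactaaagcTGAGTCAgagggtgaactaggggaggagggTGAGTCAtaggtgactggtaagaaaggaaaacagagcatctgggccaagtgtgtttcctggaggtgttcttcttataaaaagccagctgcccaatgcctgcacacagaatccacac
The match began 45 bases before the start in Jun and 42 in Sox11, where it was read on the other strand. Sprr1a held TGAGTCA at 146 and 116 bases and TGACATCA at 207 bases before its start. Of 32851 promoter windows of this length, 4.46% held TGAGTCA, 1.55% TGACGTCA and 2.93% TGACATCA on either strand. These matches are letters in a window, and binding was not measured.

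Other genes of the injury response, from a list of 32 of which 29 were tested, held 1 gene called by edgeR at 3d against 0d (0.219% of all genes), 1 from 3d to 30d (0.935%) and 1 from 1d to 30d (0.571%). The untested Vip, Crh and Ankrd1 had at most 4, 11 and 5 counts in any library. Adcyap1, the precursor of the neuropeptide PACAP, was at 73.2 and 81.7 CPM at 0d, 84.0 and 90.2 CPM at 1d, 91.8 and 88.5 CPM at 3d, and 66.6 and 61.4 CPM at 30d. Its 30d libraries were below all others, and it fell by 0.49 on the log2 scale from 3d to 30d (standard error 0.06, edgeR adjusted p = 0.00201) and by 0.44 from 1d to 30d (standard error 0.06, edgeR adjusted p = 0.00358). The sums of satellite glia, myelinating Schwann cell, macrophage, red blood cell, fibroblast and keratinocyte markers given beside Gap43 also lay apart between 3d and 30d. Against 1d, the sums of endothelium (47.8 to 51.8 CPM against 44.9 to 46.3), fibroblast, macrophage and red blood cell markers were higher at 30d. That of keratinocyte markers was lower, and the other sums overlapped. The part of these cells in both falls of Adcyap1 was not tested. Cacna2d1, the calcium channel subunit bound by gabapentin, was at 222 and 230.2 CPM at 0d, 247 and 249 CPM at 1d, 266 and 266 CPM at 3d, and 241 and 243 CPM at 30d. It rose at 3d against 0d by 0.23 on the log2 scale (standard error 0.04, edgeR adjusted p = 0.0237), and all later libraries lay above both at 0d. At 3d the summed macrophage markers (45.6 to 45.9 CPM against 48.6 to 56.8) and skeletal muscle markers (53.1 to 53.6 against 57.2 to 109) were below both 0d libraries. So were repair Schwann cell markers (30.5 to 33.1 against 36.0 to 36.2), of which Shh made up most (32.6 and 30.1 CPM at 3d, 35.5 and 35.8 at 0d). The satellite glia sum was above both (734 to 737 against 720.4 to 724). Of its markers Glul (489 and 481 CPM against 393 and 380) and Cdh19 were higher at 3d, and Kcnj10 overlapped. Fabp7 was lower at 3d (61.7 and 65.5 CPM against 148 and 176). The part of these cells in the rise was not tested. The largest value of the list at 3d against 0d was that of Il6, 1.25 with a standard error of 1.17 and 5 to 17 counts in those libraries, and the smallest that of Cckbr, -0.43 with a standard error of 0.93.

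At 3d against 0d, 20 of the 29 genes were above 0 and the median was 0.11 on the log2 scale. A shift of injury genes at 3d was among the results known when the lists were made, so it is no independent evidence. The same holds for the step from 3d to 30d, which uses the same 3d libraries. There, 21 of the 29 were below 0, with a median of -0.14, and 10 were lower and 0 higher at an unadjusted p under 0.05, beside 13% of all genes in either direction.

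The other lists held no gene with an adjusted p under 0.05 in any of the 6 comparisons, where 0.0231% to 0.935% of all genes were called, so that for lists of 10 to 17 genes nothing is read from it. Of 17 growth cone and cytoskeleton genes, 15 were below 0 from 3d to 30d, with a median of -0.09, and 8 were lower at an unadjusted p under 0.05 (13% of all genes in either direction). This list too was made with earlier results known, so its counts are no independent evidence. Over the same step 8 of 13 genes of DLK and JNK signalling were above 0 (median 0.01). Below 0 were 7 of 10 AP-1 and ATF partners of Jun (median -0.02) and 8 of 11 genes of protein kinase C and calmodulin (median -0.04). Of 13 genes of DLK and JNK signalling, 4 were above and 9 below 0 at 3d against 0d, with a median of -0.02. The 10 AP-1 and ATF partners of Jun had a median of 0.06 at 3d against 0d, with 5 above 0, and the 11 genes of protein kinase C and calmodulin, which act on Marcks and Gap43, one of 0.01, with 6 above 0.

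**Figure D4:**
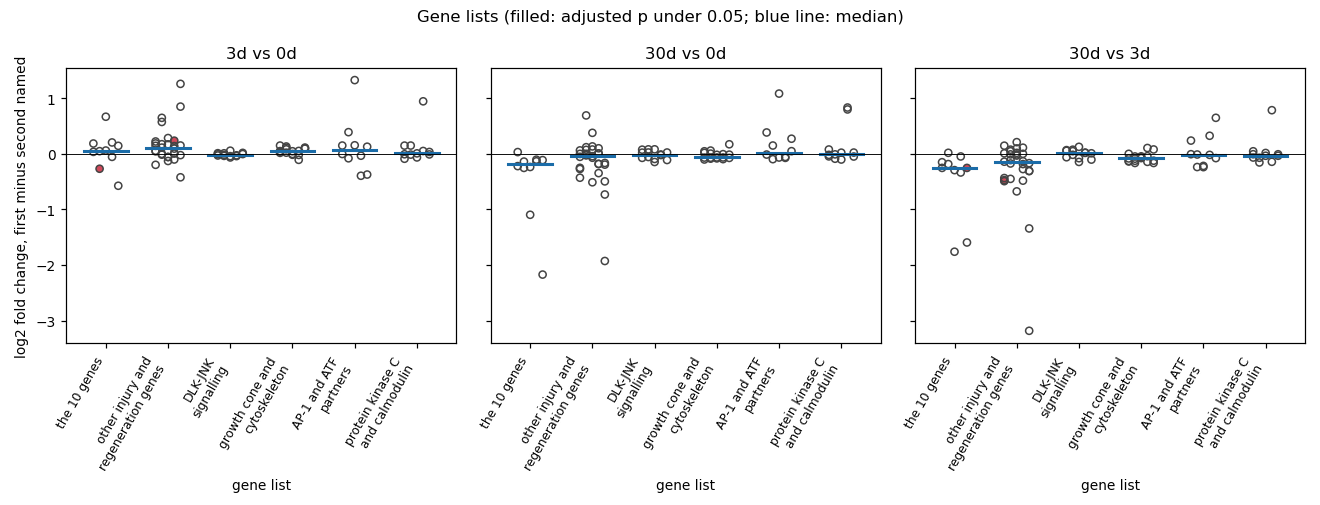
Log2 fold changes (vertical axis) of the genes of each list (horizontal axis) in 3 comparisons, with filled points for an edgeR adjusted p under 0.05 and a blue line at the median. The filled points are Marcks and Cacna2d1 at 3d against 0d, and Gap43 and Adcyap1 from 3d to 30d.

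Among the genes whose log2 CPM followed that of Marcks most closely over the 8 libraries were Cux1 (Pearson r = 0.974), 1500017E21Rik (0.971), Kpna6 (0.959) and Cnn3 (0.950), a description over libraries of which the 0d pair stood highest. Cux1 was at 72.1 to 77.0 CPM at 0d and 66.9 to 69.9 CPM later, and Cnn3 at 287 to 295 CPM at 0d and 262 to 274 CPM later. In each of these genes both 0d libraries were above all later ones.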

How the data were processed

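RNA of whole ganglia was sequenced in 8 libraries of 4 time points. By the file header and the submitters' processing notes, the authors used cutadapt 2.10 for trimming and STAR 2.7.5a for alignment to mm10, and counted read pairs on UCSC genes with featureCounts 2.0.1, without strand, counting a pair for every gene it overlapped and leaving out multi-mapping reads. The deposited counts were neither normalized nor filtered. All 8 columns were matched to samples by name, and 0 per-sample columns were left unmatched.

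The 8 libraries were fitted together with edgeR 4.0.16 in R 4.3.3, with time point as the only term, filterByExpr, TMM scaling (factors 0.993 to 1.01) and the robust quasi-likelihood F-test, and p-values were adjusted over 17328 genes by the Benjamini-Hochberg method, threshold 0.05. Standard errors were taken as the absolute log2 fold change over the root of its F statistic. Log2 CPM used a prior count of 2, and RPKM the deposited gene length. Totals were 44123208 to 73580338 counts, and the common biological coefficient of variation between pools was 8.85%. Genes with few counts, such as Sprr1a (15 counts in 1d replicate 1), also carry counting error. The procedure was tested on simulated data.

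The genes, the lists and the comparisons were chosen with earlier results of these data known. Named are the 10 genes, the called genes of each list (at most 4 by p), the largest and smallest 3d change among other injury genes, and the 5 genes most correlated with Marcks, of which 1 is not reported here. Exon overlaps, 50-base words and coding windows came from the file's exons and GENCODE vM21, and promoters from RefSeq. Alternatives were RLE factors, no scaling factors, no filter, no robust estimation, DESeq2 1.42.0, a replicate block, a fit of only the groups compared, and each library left out. Mechanical sensitivity and yeast data of the study were not used here.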

Additional observations from a re-analysis of the deposited data

How the results depend on the processing

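Of 420 log2 fold changes of the 10 genes under the 7 alternatives that keep all libraries, 404 kept their direction and their side of the threshold, 8 passed it only there, 3 lost it and 5 turned. The last were near 0, namely Gadd45a at 1d against 0d with RLE factors (0.000312), no filter (0.000332), DESeq2 (0.000210) and the replicate block (0.00292), and Gap43 at 1d against 0d without scaling factors (-0.000308). Over all tested genes, the gaps between replicates 2 and 1 were hardly correlated between time points (-0.0144 to 0.0438). However, 6 of 8 libraries were nearest to their own replicate number. Whether libraries of the same number shared a batch was not tested. Under the replicate block 1 of the 10 was called at 30d against 0d (69 of all genes) and 2 from 3d to 30d (225).

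The number of genes called went to 0 at 1d and at 3d against 0d without robust estimation (50 and 20 of all genes called), and at 1d with the compared groups alone (64). It was 1 (Marcks) at 30d against 0d with no filter (177 of all genes, against 4) or DESeq2 (186). From 1d to 3d it was 1 (Jun) with the compared groups alone (260 of all genes, against 50). From 3d to 30d it was 2 (Gap43 and Ecel1) with no filter (358 of all genes, against 162) and 3 (with Basp1) with the compared groups alone (273). With 1 library left out, it ranged from 0 to 1 at 1d, 3d and 30d against 0d (26 to 111, 1 to 121 and 1 to 202 of all genes) and from 0 to 2 from 3d to 30d (12 to 525), and the remaining pool of the group was assumed to vary like the others. The causes were not tested.

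Leaving out 1 library turned the direction of 38 of 480 log2 fold changes, and the genes concerned had these ranges over the 8 omissions. At 1d against 0d these were Marcksl1 -0.18 to 0.21, Gap43 -0.0444 to 0.0482, Basp1 -0.0793 to 0.11, Atf3 -0.15 to 0.57, Sox11 -0.18 to 0.14, Sprr1a -2.75 to 0.52, Gadd45a -0.10 to 0.11 and Ecel1 -0.77 to 0.62. At 3d against 0d these were Marcksl1 -0.0171 to 0.14, Basp1 -0.049 to 0.15, Atf3 -0.28 to 0.45, Sprr1a -1.34 to 1.19 and Gadd45a -0.16 to 0.0527. At 30d against 0d these were Atf3 -0.54 to 0.19, Jun -0.0264 to 0.0797 and Gadd45a -0.21 to 0.00086. From 1d to 3d these were Marcks -0.0145 to 0.00165, Marcksl1 -0.15 to 0.23, Basp1 -0.044 to 0.11 and Sprr1a -0.0606 to 2.17. From 3d to 30d these were Marcks -0.0372 to 0.0629 and Gadd45a -0.11 to 0.00339. From 1d to 30d these were Marcks -0.0433 to 0.0569, Jun -0.035 to 0.0709, Sox11 -0.28 to 0.0451 and Sprr1a -1.85 to 0.57. Of the 60 values in all, 26 turned in at least 1 omission and 20 others moved by over 1.5 times.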
